A study of Mus musculus with 4 samples.

Results

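Rassf4, Pdzrn4, Gsg1l, Fam163a, Lrrn2, Ralyl and Sstr3 are 7 genes, none of them a transcription factor gene, that were chosen by array signals much higher in Atoh1-GFP than in dNeurog1-GFP cells of the mouse neural tube at E10.5. Members were found as the probe sets whose single gene symbol in the platform annotation was one of the 7, which gave 10 of the 45037 probe sets on the array and 7 of its 18193 singly named genes. Rassf4 had 3 probe sets, Sstr3 had 2 and the other 5 genes had 1 each. Because the difference between the populations chose these genes, that difference is described below with no test.

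Each population was measured on 2 Affymetrix arrays, which the series' design text calls biological replicates. Atoh1-GFP cells came from the Atoh1BAC-GFP line, in which a bacterial artificial chromosome of the Atoh1 locus carries GFP and marks the cells that form dorsal interneuron 1 (dI1). dNeurog1-GFP cells came from a line in which a Neurog1 enhancer drives GFP in the adjacent dorsal domain, whose cells become dorsal interneuron 2 (dI2). Both lines had a mixed B6SJLF1 and ICR background, both groups carry a GFP transgene, and trunk neural tubes were dissociated and sorted by GFP fluorescence. The labels say that GFP-negative and GFP-positive cells were both collected, and the arrays are read here as the GFP-positive cells. How many embryos stand behind an array, and whether they were pooled, the sources used here do not say. GFP lineage labels of this kind hold both progenitors and young neurons, and in sorted bulk RNA a change in the share of a cell type cannot be told apart from a change in RNA per cell.

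The dI1 cells arise at the dorsal edge of the neural tube, beside the roof plate, and become excitatory relay neurons, many of which send axons to the cerebellum or across the midline. The basic helix-loop-helix factor Atoh1 specifies them, and LIM-homeodomain and Bar-class factors act downstream of it. The 7 genes belong to no single pathway. Sstr3 is a somatostatin receptor that couples to inhibitory G proteins and sits in the primary cilium of neurons. Gsg1l is a claudin-like auxiliary subunit of AMPA-type glutamate receptors, and Lrrn2 is a neuronal transmembrane protein with leucine-rich repeats. Rassf4 is a Ras-association domain protein of the class that can bind the Hippo pathway kinases. Pdzrn4 is a RING and PDZ domain protein of the LNX ubiquitin ligase family. Ralyl is an RNA-binding protein related to RALY and hnRNP C, and Fam163a is a small membrane protein first described in human neuroblastoma.

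Signals are MAS5 intensities, multiplied so that each array had a 2% trimmed mean of 500 over all probe sets. The deposited trimmed means were 250 on both replicate 1 arrays and 500 on both replicate 2 arrays, so replicate 1 signals were doubled in effect and replicate 2 signals stand as deposited. Differences are log2(signal + 32) values of Atoh1-GFP cells minus those of dNeurog1-GFP cells, and the added 32 shrinks the differences of dim genes. They are also given within each replicate number, which marks arrays that shared a scaling target. Over the 12740 genes kept, the median difference was 0.01 within replicate 1 and -0.01 within replicate 2. The scaling did not level the median signal over all probe sets. It was 138 and 76.0 on the Atoh1-GFP arrays of replicates 1 and 2, against 115 and 75.4 on the dNeurog1-GFP arrays. The identity markers followed the labels. All 5 dI1 markers, Atoh1 among them (21412 and 19675 in Atoh1-GFP cells, against 1771 and 1861 in dNeurog1-GFP cells), were higher in Atoh1-GFP cells in both replicates, and all 5 dI2 markers were lower.

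Sstr3 was measured by probe set 1441603_at, with signals of 305 and 237 on the Atoh1-GFP arrays of replicates 1 and 2, against 93.4 and 17.4 on the dNeurog1-GFP arrays. The Atoh1-GFP signals lay close together and the dNeurog1-GFP signals lay far apart, so the fold was 3.27 within replicate 1 and 13.6 within replicate 2, where the lower signal is dim and sets the size of the fold. On the log2 scale the means were 8.23 ± 0.23 in Atoh1-GFP cells and 6.30 ± 0.95 in dNeurog1-GFP cells (SD, n = 2 each), a difference of 1.94. The dimmer Sstr3 probe set, 1450577_at, had 39.2 and 40.6 in Atoh1-GFP cells, against 33.0 and 9.22 in dNeurog1-GFP cells. All 4 of these signals were below 63.45, the mean signal that a probe set had to reach to be kept, and it was the one probe set of the 10 that was not kept. Its difference was 0.47, and the 2 probe sets thus gave Sstr3 differences of unlike size. The dNeurog1-GFP mean of the brighter Sstr3 probe set, 55.4, was also below 63.45, so Sstr3 was kept through its Atoh1-GFP arrays.

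Gsg1l, the AMPA receptor auxiliary subunit gene, gave signals of 1198 and 1953 in Atoh1-GFP cells, against 208 and 359 in dNeurog1-GFP cells (probe set 1436013_at). The replicate 2 array was higher in both populations, by 1.63 times in Atoh1-GFP cells and 1.73 times in dNeurog1-GFP cells, and the fold between populations was 5.77 within replicate 1 and 5.44 within replicate 2. Its log2 difference was 2.35, with 2.36 and 2.34 within replicates 1 and 2. Log2 means were 10.61 ± 0.49 in Atoh1-GFP cells and 8.26 ± 0.50 in dNeurog1-GFP cells (SD, n = 2 each).

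Lrrn2, the leucine-rich repeat gene, gave signals of 127.8 and 146 in Atoh1-GFP cells, against 29.8 and 13.2 in dNeurog1-GFP cells (probe set 1433469_at). Both dNeurog1-GFP signals lay below the filter value of 63.45, so Lrrn2 was kept through its Atoh1-GFP arrays. The fold was 4.28 within replicate 1 and 11.1 within replicate 2, and the log2 difference was 1.68 (1.37 and 1.98 within replicates 1 and 2). Its log2 means were 7.40 ± 0.11 in Atoh1-GFP cells and 5.72 ± 0.32 in dNeurog1-GFP cells (SD, n = 2 each).

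Rassf4 was the member whose 3 probe sets could be set side by side. The brightest, 1439622_at, gave signals of 5910 and 6880 in Atoh1-GFP cells, against 715 and 1302 in dNeurog1-GFP cells. Probe set 1444009_at had 1008 and 771 in Atoh1-GFP cells, against 241 and 180 in dNeurog1-GFP cells. Probe set 1431038_at had 609 and 345 in Atoh1-GFP cells, against 229 and 152 in dNeurog1-GFP cells. Both Atoh1-GFP arrays were above both dNeurog1-GFP arrays on all 3 probe sets, which differed in the size of the gap. The log2 differences were 2.68, 1.92 and 1.16 in that order. For the brightest probe set the fold was 8.27 within replicate 1 and 5.28 within replicate 2, and for the dimmest 2.65 and 2.26. The sources used here do not say where on the transcripts each probe set lies. The log2 means of the brightest were 12.65 ± 0.15 in Atoh1-GFP cells and 9.96 ± 0.59 in dNeurog1-GFP cells (SD, n = 2 each).

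Pdzrn4, the RING and PDZ domain gene, gave signals of 1358 and 2441 in Atoh1-GFP cells, against 210 and 395 in dNeurog1-GFP cells (probe set 1456512_at). As with Gsg1l, the replicate 2 array was higher in both populations, by 1.80 times in Atoh1-GFP cells and 1.88 times in dNeurog1-GFP cells. The fold between populations was 6.46 within replicate 1 and 6.18 within replicate 2, and the log2 difference was 2.53 (2.52 and 2.53). Log2 means were 10.86 ± 0.59 in Atoh1-GFP cells and 8.33 ± 0.58 in dNeurog1-GFP cells (SD, n = 2 each).

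Ralyl, the RNA-binding protein gene, gave signals of 132 and 143 in Atoh1-GFP cells, against 12.1 and 24.1 in dNeurog1-GFP cells (probe set 1454715_at). Like Lrrn2 it was kept through its Atoh1-GFP arrays, since both dNeurog1-GFP signals were below 63.45. The fold was 11.0 within replicate 1 and 5.92 within replicate 2, and the log2 difference was 1.77 (1.90 and 1.64). The Atoh1-GFP arrays were the closest pair among the kept probe sets of the 7 genes, with a log2 mean of 7.41 ± 0.06, against 5.64 ± 0.25 in dNeurog1-GFP cells (SD, n = 2 each).

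Fam163a gave signals of 369 and 416 in Atoh1-GFP cells, against 6.84 and 110 in dNeurog1-GFP cells (probe set 1457112_at). Its Atoh1-GFP signals were close together, while the replicate 2 dNeurog1-GFP array was 16.04 times the replicate 1 array. The dNeurog1-GFP mean, 58.3, was below 63.45, so Fam163a too was kept through its Atoh1-GFP arrays. The fold was accordingly 54.0 within replicate 1, where the lower signal is far below the filter value and sets the size of the fold, and 3.79 within replicate 2. The log2 difference was 2.51, or 3.37 within replicate 1 and 1.66 within replicate 2. Log2 means were 8.73 ± 0.11 in Atoh1-GFP cells and 6.21 ± 1.32 in dNeurog1-GFP cells (SD, n = 2 each), the widest spread within a population among the 10 probe sets.

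**Figure D1:**
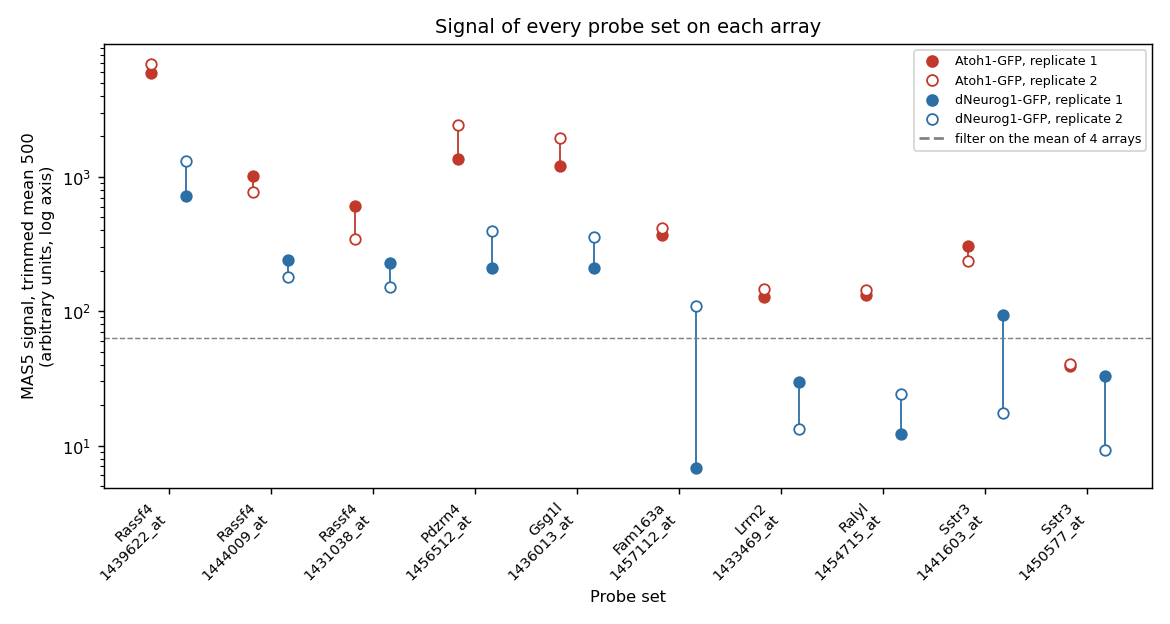
MAS5 signal (log axis, each array at a trimmed mean of 500) of all 10 probe sets on the 4 arrays. Red points are Atoh1-GFP and blue points dNeurog1-GFP arrays, filled for replicate 1 and open for replicate 2, with a line joining the 2 arrays of a population, and the dashed line is the filter value of 63.45 for the mean over 4 arrays. Every red pair lies above its blue pair, and the blue pairs of Fam163a and Sstr3 are spread widest.

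The sequence just upstream of the annotated start was read for the genes found in the RefSeq promoter table (build GRCm38.p6), since Atoh1 and the neurogenins bind E-boxes, the motif CANNTG. The table held 5 of the 7 genes, Rassf4, Pdzrn4, Fam163a, Lrrn2 and Sstr3, with 2 starts each for Pdzrn4 and Sstr3. In the 250 bases before a start, CANNTG was found in 6 of these 7 windows, and in 66.2% of the 32851 windows of that length in the table. The motif reads the same on both strands in this spelling. Specific cores, searched on both strands, overlap with it and are counted within it. The core CAGCTG was found in 1 window, that of Fam163a, and in 13.0% of all windows. The core CAGATG, the reverse complement of which is written CATCTG, was found in 1 window, that of the second Pdzrn4 start, and in 14.4% of all windows. These 2 windows and that of Rassf4, the gene with the largest difference of the 7, are shown 5′ to 3′ on the strand of the gene, with every CANNTG in capitals.
Fam163a, chr1:156205027-156205276, minus strand: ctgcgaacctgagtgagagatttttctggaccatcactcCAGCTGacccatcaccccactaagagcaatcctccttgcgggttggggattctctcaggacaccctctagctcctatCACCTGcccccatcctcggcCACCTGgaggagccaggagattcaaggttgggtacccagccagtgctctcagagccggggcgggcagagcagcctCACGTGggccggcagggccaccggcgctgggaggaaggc
Pdzrn4, second start, chr15:92596859-92597108, plus strand: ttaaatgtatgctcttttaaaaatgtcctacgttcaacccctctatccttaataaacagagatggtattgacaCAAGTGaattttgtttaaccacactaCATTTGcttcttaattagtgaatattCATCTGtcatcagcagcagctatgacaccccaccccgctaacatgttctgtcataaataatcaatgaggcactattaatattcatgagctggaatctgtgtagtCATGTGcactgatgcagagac
Rassf4, chr6:116673837-116674086, minus strand: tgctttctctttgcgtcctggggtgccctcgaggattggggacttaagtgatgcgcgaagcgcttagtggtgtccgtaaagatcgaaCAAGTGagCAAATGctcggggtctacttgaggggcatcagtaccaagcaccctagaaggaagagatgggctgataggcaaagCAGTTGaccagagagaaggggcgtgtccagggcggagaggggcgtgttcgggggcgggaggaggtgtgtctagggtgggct
The Fam163a window held 4 E-boxes, with CAGCTG farthest from the start at 211 bases. The Pdzrn4 window also held 4, with the CATCTG form beginning 125 bases before the start. The Rassf4 window held 3, of which neither core was one. Of the windows not shown, the first Pdzrn4 start and Lrrn2 held 1 each. The first Sstr3 start held 0 and the second held 2. Starts are numbered by chromosome coordinate, and Sstr3 lies on the minus strand, so its second start is the upstream one. Over all windows the mean was 1.16 and the median 1. A match of letters does not show that a factor binds there.

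In order of the mean difference among all 12740 genes, Rassf4 stood 9th, Pdzrn4 11th, Fam163a 12th, Gsg1l 14th, Sstr3 33rd, Ralyl 48th and Lrrn2 57th toward Atoh1-GFP cells. The order was not the same within the replicate numbers. Fam163a stood 4th within replicate 1 and 71st within replicate 2, and Sstr3 stood 158th within replicate 1 and 15th within replicate 2. Rassf4 (10th and 18th), Pdzrn4 (16th and 14th) and Gsg1l (24th and 20th) held similar places in both. On log2(signal + 32), all 7 genes reached a 2-fold excess in Atoh1-GFP cells both within replicate 1 and within replicate 2, as did 1.11% of all genes. With 4 times that pseudocount, this held for 4 of the 7. Both Atoh1-GFP arrays exceeded both dNeurog1-GFP arrays for all 7, as for 15.9% of all genes. These counts follow from how the genes were chosen. With 2 arrays against 2, an exact two-sided permutation test of a single gene cannot give a p below 0.33.

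**Figure D2:**
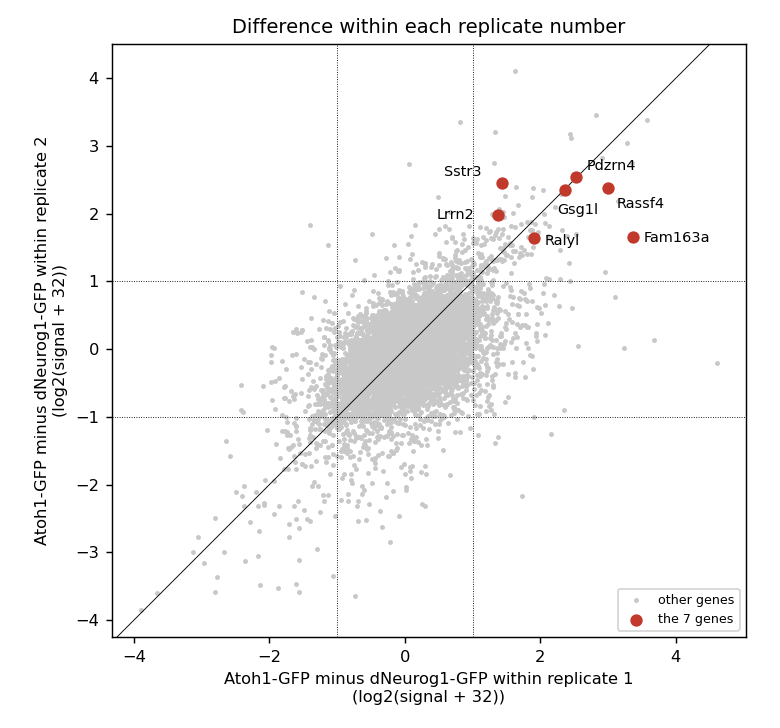
Each point is a gene, with its Atoh1-GFP minus dNeurog1-GFP difference on log2(signal + 32) within replicate 1 on the x axis and within replicate 2 on the y axis. The 7 genes are red, dotted lines mark 2-fold and the diagonal marks equal differences. Pdzrn4 and Gsg1l lie on the diagonal, Fam163a, Rassf4 and Ralyl to its right, and Sstr3 and Lrrn2 above it.

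The 7 genes differed in their pattern over the 4 arrays. Likeness was measured as the Euclidean distance between log2(signal + 32) values, each gene centred on its own mean. The difference between the populations, by which these genes were chosen, is part of this distance. A gene at a small distance must therefore have a similar difference, and nearness to a dI1 gene is no separate evidence of a link to it. Over the 21 pairs of the 7 genes the distance ran from 0.22 for Pdzrn4 with Gsg1l to 2.37 for Fam163a with Sstr3, with a median of 0.98. For Fam163a the higher of the 2 dNeurog1-GFP signals was that of replicate 2, and for Sstr3 that of replicate 1. Among all genes kept, the nearest to Pdzrn4 was Gsg1l and the nearest to Gsg1l was Pdzrn4. The nearest to Rassf4 was Lhx9, a LIM-homeodomain gene of dI1 neurons, at a distance of 0.33, followed by Pdzrn4 (0.46) and the semaphorin gene Sema7a (0.48). Lhx9 was also nearest to Fam163a (0.45), before Evx1 (0.68), a homeodomain gene of ventral interneurons, and the secretin gene Sct (0.72).

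After Pdzrn4, the genes nearest to Gsg1l were the ephrin receptor gene Epha5 (0.29) and Tmem163 (0.37). Those nearest to Lrrn2 were Mtcl1 (0.20), whose product crosslinks microtubules, the serine protease inhibitor gene Serpinb8 (0.20) and Nkd1 (0.26), an inhibitor of Wnt signalling. Ralyl was nearest to the secreted factor gene Tafa4 (0.15), the selenoprotein gene Selenom (0.18) and Art5 (0.18). Sstr3 was nearest to Stpg1 (0.27), the serotonin receptor gene Htr1b (0.41) and the grainyhead-like factor gene Grhl3 (0.44). Each distance rests on 4 arrays, 2 in each population. All of these neighbours were themselves higher in Atoh1-GFP cells, which follows from how the genes were chosen and how the distance was measured.

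**Figure D3:**
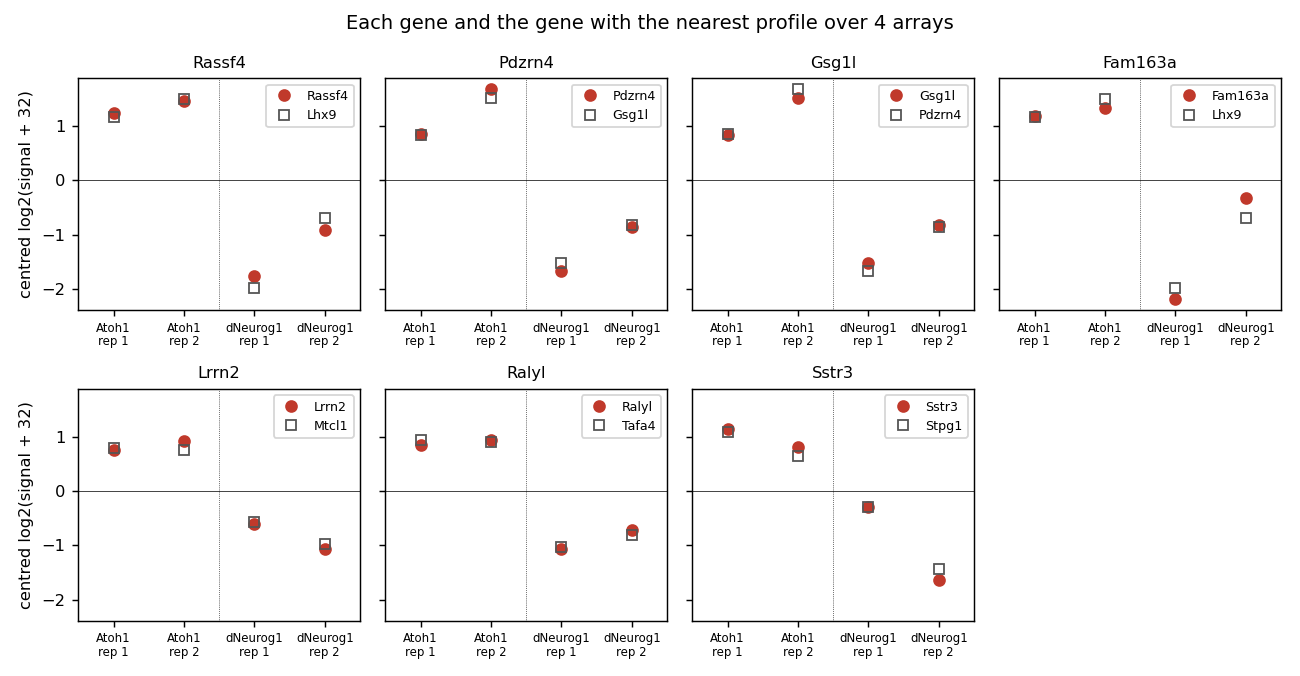
Each panel shows, for one of the 7 genes, its log2(signal + 32) value on each array minus its own mean over the 4 arrays (red circles) and the same for the gene with the nearest profile (open squares). The dNeurog1-GFP pair is far apart for Fam163a and Sstr3, with replicate 1 the lower array for Fam163a and replicate 2 the lower for Sstr3.

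Relatives and known partners of the 7 genes were taken from 8 lists set by family membership or textbook role. They were tested in the fit across all genes (limma with Benjamini-Hochberg adjustment, adjusted p under 0.05). Of 84 relatives, 82 were on the array under a single symbol and 64 were kept. Without the replicate number as a block 0 of 64 passed, and 0.22% of all genes did. At an unadjusted limma p under 0.05, 9 of 64 (14.1%) passed, and 8.59% of all genes did. With the replicate number as a block 7 of 64 (10.9%) passed, and 6.51% of all genes did. Of these 7, Gria4, Sstr2 and Pdzrn3 were higher in Atoh1-GFP cells (2.78% of all genes were), and Sst, Lrrtm1, Lrrc4 and Yap1 were lower (3.73% of all genes were). Each of the 7 passed with the block under the 3 other scalings as well, in the same direction. Without the block, 0 of 64 passed under each of those scalings too. All of these fits reuse the same 4 arrays, and the labels do not say that replicate numbers share a day or litter. In simulated data the block fit made more false calls than its nominal rate.

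Among the somatostatin genes, a second receptor differed the same way as Sstr3 and the ligand differed the opposite way. Sstr2, which like Sstr3 couples to inhibitory G proteins, gave signals of 945 and 728 in Atoh1-GFP cells, against 317 and 259 in dNeurog1-GFP cells. The log2 difference of Sstr2 was 1.43 (limma adjusted p = 0.0099 with the block and 0.11 without). Sst, the peptide ligand of these receptors, had 328 and 215 in Atoh1-GFP cells, against 703 and 1333 in dNeurog1-GFP cells. The log2 difference of Sst was -1.75 (limma adjusted p = 0.037 with the block and 0.16 without), with -1.03 within replicate 1 and -2.47 within replicate 2. Sst, like Sstr2, did not overlap between the populations. Both Atoh1-GFP arrays exceeded both dNeurog1-GFP arrays, as for Sstr2, in 15.9% of all genes. The share in the direction of Sst is not given here. Sstr4 and Sstr5 had differences of 0.21 and 0.20 and did not pass, and Sstr1 was dim on all arrays (2.51 to 4.99) and not kept. Among all genes, 2.78% passed upward and 3.73% downward with the block. Of the 11 genes of this list that were kept, 1 passed upward, 1 downward and 9 did not pass with the block, with a median of 0.21. The inhibitory G protein genes Gnai1, Gnai2, Gnai3 and Gnao1 and the potassium channel genes Kcnj3 and Kcnj6 were among the 9. Of 8 kept genes of the primary cilium, where Sstr3 protein resides, 0 passed in either fit, and their median was 0.16. Over all genes, 0.22% passed without the block and 6.51% with it.

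Among AMPA receptor genes, Gria4, which encodes a pore-forming subunit, was higher in Atoh1-GFP cells. Its brightest probe set had 1032 and 1440 in Atoh1-GFP cells, against 349 and 276 in dNeurog1-GFP cells, which makes a log2 difference of 1.87 (limma adjusted p = 0.010 with the block and 0.072 without). Its other 2 probe sets had differences of 1.92 and 0.31. Gria2, another pore subunit gene, had 473 and 269 in Atoh1-GFP cells, against 293 and 181 in dNeurog1-GFP cells, with a log2 difference of 0.57 that did not pass (limma adjusted p = 0.16 with the block). Other kept Gria2 probe sets had 0.695 and 0.365, the latter with 1.18 within replicate 1 and -0.45 within replicate 2. Gria1 and Gria3 were not kept. Where 6.51% of all genes passed with the block, Gria4 was the 1 of the 10 kept genes of this list that did. The 9 others, among them the auxiliary subunit genes Cacng2, Cacng4, Cacng7 and Cnih2, did not pass, and Gsg1, the gene for which Gsg1l is named, was not kept.

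Of the leucine-rich repeat relatives of Lrrn2, none of the 15 kept passed in the direction of Lrrn2 in either fit. Lrrn1, its closest named paralogue together with Lrrn3, had 4853 and 3994 in Atoh1-GFP cells, against 4098 and 3347 in dNeurog1-GFP cells, and did not pass (log2 difference 0.25, limma adjusted p = 0.25 with the block). Lrrn3 had 333 and 184 in Atoh1-GFP cells, against 402 and 616 in dNeurog1-GFP cells (log2 difference -0.92, limma adjusted p = 0.17 with the block, and 0.022 with the block after quantile normalization). Lrrtm1 and Lrrc4, which encode synaptic adhesion proteins, passed downward with the block. Lrrtm1 had 106 and 146 in Atoh1-GFP cells, against 308 and 437 in dNeurog1-GFP cells (log2 difference -1.35, limma adjusted p = 0.023 with the block and 0.23 without). Lrrc4 had 359 and 330 in Atoh1-GFP cells, against 955 and 725 in dNeurog1-GFP cells (log2 difference -1.20, limma adjusted p = 0.016 with the block and 0.16 without). A dimmer Lrrc4 probe set that was also kept had -0.91. Flrt2, a leucine-rich repeat gene named after its values were seen, had 749 and 551 in Atoh1-GFP cells, against 397 and 487 in dNeurog1-GFP cells, and did not pass (log2 difference 0.52, limma adjusted p = 0.22 with the block). Over the 15 kept genes of the list, 0 passed upward and 2 downward with the block (2.78% and 3.73% of all genes did). The median of the list was -0.39, or -0.20 within replicate 1 and -0.88 within replicate 2.

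Pdzrn3, the nearest relative of Pdzrn4 in the LNX family, had 3511 and 4416 in Atoh1-GFP cells, against 1876 and 1579 in dNeurog1-GFP cells. The log2 difference of Pdzrn3 was 1.18 (limma adjusted p = 0.015 with the block and 0.14 without), and its dim second probe set, which was not kept, had -0.05. Lnx1 and Lnx2 had differences of -0.10 and -0.56 and did not pass. In the RASSF list, 1 of 15 kept genes passed with the block, near the 6.51% of all genes that did. It was lower, namely Yap1, the transcriptional coactivator held in check by the Hippo kinases. Yap1 had 1988 and 2051 in Atoh1-GFP cells, against 3235 and 3774 in dNeurog1-GFP cells (log2 difference -0.78, limma adjusted p = 0.020 with the block and 0.28 without). A dimmer Yap1 probe set that was also kept had a smaller difference, -0.375. The other kept RASSF genes, Rassf1, Rassf2, Rassf3, Rassf5, Rassf7, Rassf8 and Rassf10, did not pass and had differences from -0.32 (Rassf2) to -0.10 (Rassf8). Rassf6 was dim on all arrays and not kept. Raly and Hnrnpc, the relatives of Ralyl, had differences of -0.22 and 0.12 and did not pass, and the sign of the Hnrnpc value was lost under another scaling, where it was 0.00. A dimmer Hnrnpc probe set that was also kept went the other way, with -0.27 (-0.25 and -0.28 within replicates 1 and 2). Fam163b, the one named relative of Fam163a, was not kept.

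**Figure D4:**
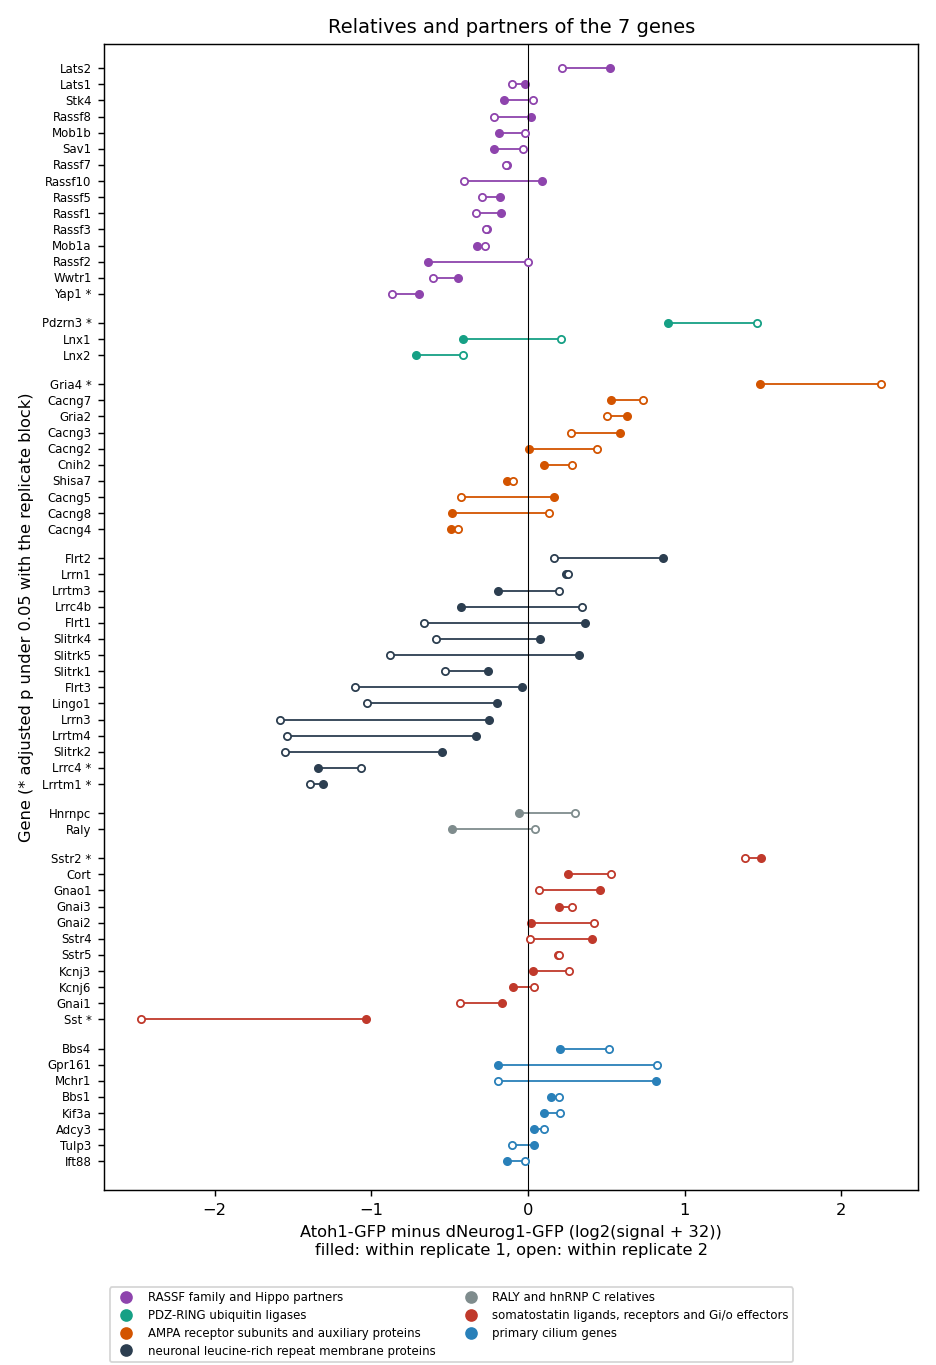
Atoh1-GFP minus dNeurog1-GFP difference on log2(signal + 32) of the 64 kept relatives, coloured by list, with filled points within replicate 1 and open points within replicate 2, and an asterisk for an adjusted p under 0.05 with the replicate block. Gria4, Sstr2 and Pdzrn3 lie to the right and Sst, Lrrtm1, Lrrc4 and Yap1 to the left in both replicate numbers.

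Markers of maturity and of other cells differed between the populations beside the 7 genes. Of 14 neuronal markers, 10 were higher in Atoh1-GFP cells in both replicates and 2 lower, and their summed signal was 74622 and 77490 in Atoh1-GFP cells, against 49040 and 66848 in dNeurog1-GFP cells. Of 14 neural progenitor markers, 12 were lower within both and 1 higher, and their sum was 46088 and 37552 in Atoh1-GFP cells, against 67816 and 49915 in dNeurog1-GFP cells. Of 9 heart muscle markers, 8 were higher in Atoh1-GFP cells within both, with a sum of 2188 and 4409, against 531 and 2242 in dNeurog1-GFP cells. All 5 measured markers of primitive red cells were higher too, with sums of 30534 and 31646 in Atoh1-GFP cells, against 7736 and 22864 in dNeurog1-GFP cells. Of 6 endothelial markers 5 were higher within both (1425 and 682 in Atoh1-GFP cells, against 598 and 532 in dNeurog1-GFP cells). The share of all genes that were higher, or lower, within both is not given here, so these counts have no background beside them. Median log2 differences of these lists, in that order, were 0.53, -0.92, 1.22, 1.22 and 0.63, against 0.006 over all genes.

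All 7 mesenchyme markers went opposite ways in the replicate numbers (5512 and 3812 in Atoh1-GFP cells, against 2780 and 6474 in dNeurog1-GFP cells). The 3 measured ganglion and neural crest markers summed to 550 and 239 in Atoh1-GFP cells, against 556 and 775 in dNeurog1-GFP cells. Of these, 1 was higher within both, 1 lower and 1 went opposite ways. The 9 measured ventral neural tube markers summed to 1016 and 614 in Atoh1-GFP cells, against 913 and 2584 in dNeurog1-GFP cells. This list was mixed, with 3 higher in Atoh1-GFP cells within both, 4 lower and 2 that went opposite ways. No marker was listed at 0. The part of these other cells, or of the balance of neurons and progenitors, in the levels of the 7 genes was not tested.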

How the data were processed

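Total RNA of sorted cells was hybridised to 4 Affymetrix arrays, 2 per population. Per the submitters' processing notes, the authors' deposited signal intensities come from MAS5. The sources used here do not name a version. MAS5 summarises the probes of each probe set as 1 value and scales every array by its own factor. The deposited trimmed means (2% left out at each end) were 250 on replicate 1 and 500 on replicate 2 arrays, so all arrays were rescaled to 500. The labels do not say that replicate numbers share a day or litter; since each number shared a scaling target, results are given without and with it as a block, and within it.

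The 64 control probe sets were left out. Probe sets with a mean signal at or above the 40th percentile (63.45) were kept, 27022 of 45037. Of the 45037, 34945 had 1 symbol in the platform annotation, 932 several and 9160 none. Of those with 1 symbol, 34741 were found in the reference gene table, which changed 0 symbols. The brightest kept probe set with 1 symbol stood for a gene, which gave 12740 genes. limma 3.58.1 in R 4.3.3 (lmFit, eBayes with an intensity trend) was run on log2(signal + 32) with Benjamini-Hochberg adjustment. The fit has 2 residual degrees of freedom without the block and 1 with it, so p-values rest mostly on spread shared across genes; in simulated data the block fit made more false calls than its nominal rate.

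The 7 genes, the lists and the scaling were chosen with earlier results of these data known. Named were all 7 genes, relatives that passed in either fit with the closest paralogues and the ligand (other relatives given as examples were added after their values were seen), the 3 nearest profiles of each gene, and markers. Alternatives covered scaling, pseudocount, filter, block, probe set choice and leaving out each array. The number of arrays limits the precision.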

Additional observations from a re-analysis of the deposited data

How the results depend on the processing

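The 7 genes kept their direction in all 70 recomputed differences, of which 59 lay within 1 SD of the reported value and 11 did not. The SD was pooled over the 2 populations. By construction, leaving out 1 of 2 arrays cannot move a difference beyond that SD, or reverse it where the populations do not overlap. Averaging probe sets cannot change the 5 genes with 1 probe set. All of these are among the 59, so that count says little about stability. Ralyl moved under all 3 other scalings, to 1.504 as deposited, 1.56 on one 75th percentile and 1.57 after quantile normalization. With 4 times the pseudocount, Lrrn2 had 0.83, Ralyl 0.86, Sstr3 1.15 and Fam163a 1.54, and with a pseudocount of 8 Lrrn2 had 2.35 and Ralyl 2.52. Averaging all probe sets of a gene gave 1.92 for Rassf4 and 1.21 for Sstr3. Leaving out single arrays moved Fam163a most, to 1.58 without dNeurog1-GFP replicate 1 and 3.45 without dNeurog1-GFP replicate 2, and Sstr3 to 2.61 and 1.26. Of the 7 genes, the number at least 2-fold higher within both replicate numbers was 4 with that larger pseudocount, and 4 with the filter at the 60th percentile, which kept only 4 of them. Over all genes, 28 passed without the block (16 higher and 12 lower in Atoh1-GFP cells). This became 13 on signals as deposited (1 and 12), 18 on one 75th percentile (7 and 11), 26 after quantile normalization (17 and 9), 14 with no filter, 18 with the filter at the 60th percentile and 1 over all probe sets singly. With the replicate block 829 genes passed, which held all 28, and 7 relatives passed in place of 0. Same-numbered arrays deviated together from their population means (r = 0.66 across genes, the same for both pairs by construction), which is no proof of pairing with 2 pairs. Quantile normalization together with the replicate block, added after seeing the data, gave 1726 genes and 11 relatives. Leaving out 1 array gave 153 to 380 genes (380 without Atoh1-GFP replicate 1, 245 without Atoh1-GFP replicate 2, 153 without dNeurog1-GFP replicate 1 and 167 without dNeurog1-GFP replicate 2) and 1 to 6 relatives, with the lone array assumed to vary like the other population. The cause of these changes was not tested. Mean dNeurog1-GFP signals of Lrrn2, Ralyl, Fam163a and Sstr3 lie below the filter value, where dim signal limits any fold, their largest folds (11.1, 11.0, 54.0 and 13.6) included.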
